A study of Mus musculus with 32 samples.

Results

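The sites described here were open chromatin found in day 0 cells and in none of the sorted reprogramming populations, all with control shRNA. In ATAC-seq a transposase cuts accessible DNA and tags it for sequencing, and each deposited list gives the positions where such cuts pile up as peaks. The 5 control lists (day 0 and the sorted Thy1+, SSEA1-Thy1-, SSEA1+ and GFP+ cells) were pooled over chromosomes 1 to 19 and X, and overlapping intervals were merged into 259154 sites. Of these, 153947 lay in the day 0 list, and 20358 (13.2% of the day 0 sites) overlapped no interval of the sorted control lists. These 20358 are called day 0-only sites below. They were chosen by their presence in the day 0 control list and absence from the sorted control lists, so these 5 lists support no result here.

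The cells were OG2 mouse embryonic fibroblasts, which carry a GFP reporter of Pou5f1, the stem cell factor also called Oct4. They were reprogrammed with OSKM, the factors Oct4, Sox2, Klf4 and c-Myc, and the sorted cells came from a doxycycline-inducible lentiviral system. Thy1 is a fibroblast surface protein that is lost early in reprogramming, SSEA1 is a surface sugar gained on the way to pluripotency, and GFP+ cells have switched on the Pou5f1 reporter. The groups with CTCF shRNA were day 0 (2 samples), Thy1+ (3 samples, of days 3, 6 and 9), SSEA1-Thy1- and SSEA1+ (2 samples each, of days 6 and 9) and GFP+ (2 samples of day 12), and each had a control shRNA group, labelled shLuci, of the same makeup. The remaining groups, of 2 samples each, were unsorted OSKM cells of day 10 with CTCF overexpression plus Smarca5 shRNA, with CTCF overexpression or with its control, and unsorted cells of day 12 with Smarca5 shRNA or control shRNA. CTCF is the zinc finger protein of insulators and domain borders, and Smarca5 is the ATPase of ISWI chromatin remodellers. The labels call the day 0 cells reprogramming cells and do not say whether they carried OSKM.

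Each group had 1 deposited list, so there was no replicate check and no test between groups. Percentages carry exact Clopper-Pearson 95% intervals, given in parentheses, which cover counting error over sites only. Sequencing depth is unknown. The list of Thy1+ cells joined 3 samples and the day 0 list 2, and the day 0 cells were not sorted, so a site carried by a subset of the fibroblasts and a site open in all of them cannot be told apart. In the same way, fewer cells with an open site and less opening per cell cannot be told apart.

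In fibroblasts, active enhancers keep short stretches of DNA clear of nucleosomes, and transcription factors such as AP-1, RUNX and TEAD proteins commonly hold them open. Such sites lie mostly away from gene starts, in introns and between genes, whereas the promoters of widely used genes are rich in CpG and open in most cell types. During reprogramming many fibroblast enhancers are known to lose accessibility early, before pluripotency enhancers open.

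The label given to these sites, fibroblast-only, was checked against marker genes. In the day 0 list 33 of 35 fibroblast genes had a peak within 1 kb of either gene end, against 14826 of 21631 protein-coding genes (68.5%). Such a peak was also found at 7 of 15 macrophage and blood genes, 5 of 10 muscle genes, 6 of 10 endothelial genes, 6 of 10 keratinocyte genes, 9 of 12 neural and Schwann genes, 8 of 10 adipocyte genes, 9 of 10 endoderm and trophoblast genes, 19 of 20 epithelial genes and 15 of 30 pluripotency genes. A peak at a gene end is thus not particular to fibroblast genes. The day 0-only sites themselves were not concentrated at fibroblast genes, so they are named by the rule and not by a cell type. The list of Thy1+ cells with CTCF shRNA held 25.8% of them, against 82.6% of all day 0 sites.

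Promoters were rare among the day 0-only sites, and the sequences of 4 of them are given. In RefSeq windows of GRCm38.p6, from 250 bases before to 50 bases after a gene's start, 89 windows touched 82 of the 20358 sites. Protein-coding genes held 32 of these windows, 26 with at least 150 bp inside the site and 10 wholly inside it. Of the 10, 4 are printed, chosen after their values were seen. The first 2 have AP-1 or RUNX letters and at most the Thy1+ CTCF shRNA list beside the day 0 lists. The other 2 were also in further lists. They read 5' to 3' on the gene's strand, and capitals mark matches to TGANTCA (AP-1) and TGNGGTT (RUNX) on either strand. N is any base, so the RUNX letters are loose. The third base of the match is A in Atp13a4 and Krtap21-1 and T in Flrt2.
Atp13a4: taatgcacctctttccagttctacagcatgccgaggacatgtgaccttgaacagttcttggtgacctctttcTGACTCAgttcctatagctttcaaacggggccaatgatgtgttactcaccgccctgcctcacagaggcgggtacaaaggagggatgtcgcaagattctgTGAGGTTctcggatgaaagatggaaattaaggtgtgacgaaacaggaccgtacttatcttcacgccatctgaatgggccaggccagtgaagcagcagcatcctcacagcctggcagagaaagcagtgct
Krtap21-1: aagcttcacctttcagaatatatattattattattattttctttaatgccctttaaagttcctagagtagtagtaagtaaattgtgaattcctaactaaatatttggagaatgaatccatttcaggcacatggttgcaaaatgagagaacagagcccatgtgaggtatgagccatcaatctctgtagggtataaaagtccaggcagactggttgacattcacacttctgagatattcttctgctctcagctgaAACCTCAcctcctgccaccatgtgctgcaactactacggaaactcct
Flrt2: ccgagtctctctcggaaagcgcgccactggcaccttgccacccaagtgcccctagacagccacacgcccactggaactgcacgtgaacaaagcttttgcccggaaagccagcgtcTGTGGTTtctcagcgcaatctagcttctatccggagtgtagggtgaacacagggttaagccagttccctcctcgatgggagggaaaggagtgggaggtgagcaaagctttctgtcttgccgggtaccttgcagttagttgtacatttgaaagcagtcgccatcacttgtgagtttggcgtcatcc
Sptbn4: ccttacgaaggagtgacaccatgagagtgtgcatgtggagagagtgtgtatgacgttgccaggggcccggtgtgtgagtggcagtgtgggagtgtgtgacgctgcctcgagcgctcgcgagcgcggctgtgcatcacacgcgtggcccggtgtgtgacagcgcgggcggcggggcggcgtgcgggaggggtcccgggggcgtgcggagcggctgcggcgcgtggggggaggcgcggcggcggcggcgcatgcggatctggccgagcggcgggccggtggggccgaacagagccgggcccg

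Atp13a4, which encodes a P5-type cation-transporting ATPase, starts in chr16:29544815-29545114 on the minus strand, and its window holds 1 AP-1 and 1 RUNX match. Its site was in the CTCF shRNA lists of day 0 and Thy1+ cells and in none of the other 8 lists that did not choose it. Krtap21-1, a keratin-associated protein of the hair shaft, has its window at chr16:89403725-89404024 on the minus strand, with 1 RUNX match, 38.7% GC and 1 CpG. Its site was held in the CTCF shRNA list of day 0 alone. Flrt2, a membrane protein that binds the Unc5 guidance receptors, has its window at chr12:95691976-95692275 on the plus strand, with 14 CpG and 1 RUNX match. Its site was in the CTCF shRNA lists of day 0 and SSEA1-Thy1- cells and in all 3 day 10 lists. Sptbn4, a spectrin of axon segments, has its window at chr7:27446540-27446839 on the minus strand, the most GC-rich of the 26 at 73.7%, with 41 CpG and no match to the AP-1, RUNX or TEAD letters. Its site was in the CTCF shRNA lists of day 0, SSEA1+ and GFP+ cells and in both day 12 lists.

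The 26 windows had a median GC content of 46.2% and a median of 3.5 CpG, against 62.3% and 22 for the 10062 promoter windows lying on any day 0 site. The 126 windows on sites shared by the day 0 and Thy1+ control lists alone were alike in this, with 46.8% and 4. The AP-1 letters TGANTCA stood in 5 of 26 windows (19.2%; 6.56 to 39.4), in 51 of the 126 (40.5%; 31.8 to 49.6), in 5.40% of the windows on day 0 sites and in 7.04% of all 21045 windows. The TEAD letters GGAATG stood in 7 of 26 (26.9%; 11.6 to 47.8), against 11.2% of windows on day 0 sites and 13.5% of all. The RUNX letters stood in 6 of 26 (23.1%; 8.97 to 43.7), against 12.0% on day 0 sites and 13.9% of all. The GC box GGGCGG, found at CpG-rich promoters, stood in 4 of 26 (15.4%; 4.36 to 34.9), against 70.0% on day 0 sites and 46.7% of all. The CTCF motif was in 0 of 26, which allows a share of up to 13.2%, against 4.65% on day 0 sites and 2.99% of all. On the 126 windows shared with Thy1+ cells alone, the TEAD letters stood in 19.8%, the RUNX letters in 30.2%, the GC box in 4.76% and the CTCF motif in 0.794%. In a window from 150 bases before the start, the AP-1 share of the 26 windows was 11.5%. Other motifs of the 20 counted were higher too. CEBP letters stood in 19.2% of the 26 (6.56 to 39.4), against 7.39% on day 0 sites. For TALE homeobox letters it was 26.9% (11.6 to 47.8), against 16.1%. E-box CAGCTG, KLF, SOX, POU, interferon and homeobox core letters were also higher. NF-kB letters were lower, with 7.69% (0.946 to 25.1) against 27.9%, as were E-box CACGTG, ETS, NFI, EBF and SRF letters. A higher share was thus not particular to AP-1, TEAD and RUNX letters. The 26 windows are few, and a letter match describes the window and is not a bound site.

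Of 1005 miRNA hairpins, 1 lay on a day 0-only site, against 93 on day 0 sites of any kind. It was Mir1899, whose hairpin occupies chr9:8246786-8246881 on the plus strand inside the site at 8246685 to 8247084. The mature RNA is printed because no other miRNA gene lay on these sites, with its seed, bases 2 to 8, in capitals.
mmu-miR-1899: aGCGAUGGccgaaucugcuucc
That site was present in the CTCF shRNA lists of day 0 and Thy1+ cells, and in none of the other 8 lists.

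The edge of the rule was sharp. Of the 133589 other day 0 sites, 133587 had an interval at the identical position in a sorted control list, and 2 met one by 200 bp or less. Likewise, 5248 of the 5249 day 0-only sites found in Thy1+ cells with CTCF shRNA were there at the identical position. The day 0 and sorted lists thus share their positions, and a site is either listed or not. On the inner side, 23 day 0-only sites (0.113%) had a sorted control peak within 50 bp, 76 (0.373%) within 200 bp and 2982 (14.6%) within 1000 bp. The median gap from a day 0-only site to the nearest sorted control peak was 3538.5 bp. It was 4209.5 bp to the nearest Thy1+ peak, 6634 bp to the nearest SSEA1-Thy1- peak, 7763.5 bp to the nearest SSEA1+ peak and 17758 bp to the nearest GFP+ peak. Those lists held 194430, 151225, 135735 and 91323 peaks in that order.

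The lists that did not choose the sites show how far the pattern returned in other samples. In day 0 cells with CTCF shRNA, 19374 of the 20358 day 0-only sites were listed (95.2%; 94.9 to 95.5), against 95.5% of all day 0 sites. Nearly all of them were thus found in a second day 0 list, at the rate of day 0 sites in general. All 19374 were there at the identical position, and whether the lists were made independently of each other is not known. In Thy1+ cells with CTCF shRNA 5249 were listed (25.8%; 25.2 to 26.4), against 82.6% of all day 0 sites. SSEA1-Thy1- cells with CTCF shRNA held 625 (3.07%; 2.84 to 3.32), against 50.5%. SSEA1+ cells with CTCF shRNA held 1353 (6.65%; 6.31 to 6.997), against 68.5%. GFP+ cells with CTCF shRNA held 896 (4.401%; 4.12 to 4.69), against 36.2%. In the 4 sorted lists with CTCF shRNA the day 0-only sites were thus listed far less often than day 0 sites at large, and Thy1+ cells held the most. The rule itself favours such a gap, because 133589 of the 153947 day 0 sites are by the rule in a sorted control list. Sites of the day 0 and Thy1+ control lists alone stood at 82.1% in Thy1+ cells with CTCF shRNA. In SSEA1-Thy1- cells it was 14.75%, in SSEA1+ cells 53.15% and in GFP+ cells 8.36%.

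**Figure D1:**
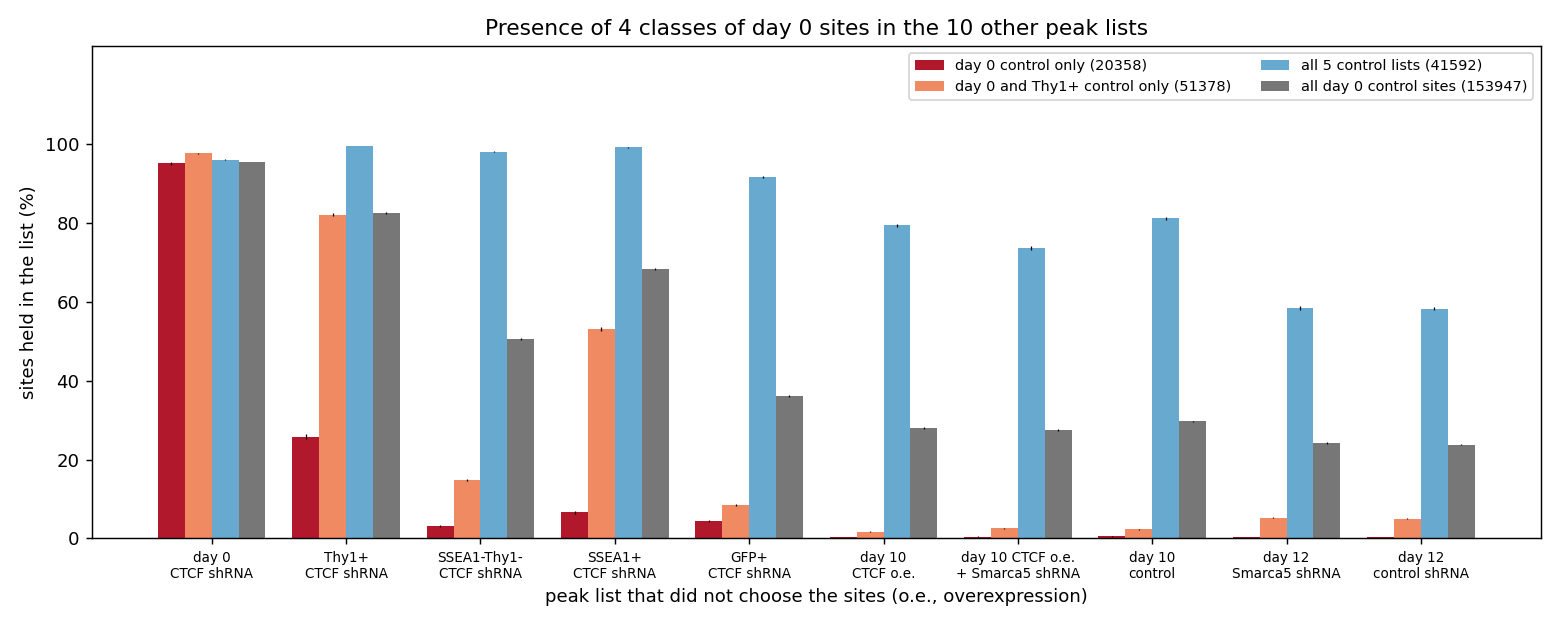
Percentage of sites (vertical axis) present in each of the 10 lists that did not choose them, for day 0-only sites, sites of the day 0 and Thy1+ control lists alone, sites of all 5 control lists and all day 0 sites, with whiskers for the 95% intervals. Day 0-only sites reach 95.2% in day 0 cells with CTCF shRNA, 25.8% in Thy1+ cells and at most 6.65% in every other list.

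The whole pattern, listed at day 0 and in no sorted population, was repeated with CTCF shRNA at 13157 day 0-only sites (64.6%; 64.0 to 65.3), against 12.8% of all day 0 sites and 6578 of the other 133589 day 0 sites (4.92%). The class nearest to them, the 51378 sites of the day 0 and Thy1+ control lists alone, showed it at 6087 sites (11.8%; 11.6 to 12.1). Sites of all 5 control lists showed it at 3 of 41592. A further 3952 day 0-only sites (19.4%; 18.9 to 19.96) were listed in day 0 and Thy1+ cells with CTCF shRNA and in no other CTCF shRNA list. It was 12.9% of all day 0 sites and 28.0% of the sites of the day 0 and Thy1+ control lists alone. At least 1 sorted list with CTCF shRNA held 6660 (32.7%; 32.1 to 33.4), against 86.6% of all day 0 sites. Most of these, 5421, were in exactly 1 sorted CTCF shRNA list, 1034 were in 2, 186 in 3 and 19 in all 4. No list with CTCF shRNA held 541 of the day 0-only sites (2.66%).

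The same rule was also applied to the lists with CTCF shRNA, an addition made after the data had been seen. It chose 20727 of 154598 day 0 sites (13.4%) with CTCF shRNA, against 20358 of 153947 (13.2%) with control shRNA, and 13157 sites were in both sets, 63.5% of the set with CTCF shRNA and 64.6% of the control set. The other lists did not mirror each other. The Thy1+ list of the other treatment held 32.1% of the set chosen with CTCF shRNA (31.4 to 32.7), against 25.8% of the control set. For SSEA1-Thy1- cells it was 1.35% of the set chosen with CTCF shRNA, against 3.07% of the control set. For SSEA1+ cells it was 0.714% (0.604 to 0.838) of the set chosen with CTCF shRNA, against 6.65% of the control set, and for GFP+ cells 1.05%, against 4.401% of the control set. Sites chosen with control shRNA were thus listed in SSEA1+ cells with CTCF shRNA more often than the reverse. List length went the same way for SSEA1+ cells, where the list with CTCF shRNA held 183625 peaks, against 135735 with control shRNA. It also did so for SSEA1-Thy1- cells, with 163842 peaks against 151225, and for GFP+ cells, with 103454 against 91323. For Thy1+ cells it went the other way. The list with CTCF shRNA was the longer, with 213369 peaks against 194430, yet it held the smaller share of the other set. The part of list length in these shares was not tested.

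The unsorted cells of days 10 and 12 held very few day 0-only sites. With CTCF overexpression plus Smarca5 shRNA at day 10, 84 were listed (0.413%; background 27.5% of all day 0 sites), with CTCF overexpression 69 (0.339%; background 28%) and with its control 97 (0.476%; background 29.7%). At day 12, 67 were listed with Smarca5 shRNA (0.329%; background 24.2%) and 66 with control shRNA (0.324%; background 23.8%). Sites of the day 0 and Thy1+ control lists alone were also rare there. At day 10 it was 2.53% of them with CTCF overexpression plus Smarca5 shRNA, 1.65% with CTCF overexpression and 2.35% with its control. At day 12 it was 5.28% with Smarca5 shRNA and 5.01% with control shRNA. With 1 list a group, these shares allow no statement on CTCF or Smarca5. Peak positions differed from those of the day 0 lists: 1 or 2 of the day 0-only sites in each of these lists had an interval at the identical position. With at least 200 bp of overlap, 0.206% of day 0-only sites were listed with CTCF overexpression plus Smarca5 shRNA (25.7% of all day 0 sites), 0.157% with CTCF overexpression (26.3%) and 0.246% with its control (27.8%). At day 12 it was 0.172% with Smarca5 shRNA (22.3%) and 0.177% with control shRNA (22.0%). About as many of the day 0-only sites were thus met at an edge as across most of their length. These lists were also short, at 66313, 67551 and 72406 peaks for the day 10 groups and 44271 and 43610 for the day 12 groups. Of the 20358 sites, 201 (0.987%) were in any of these 5 lists and 2 were in all of them.

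Day 0-only sites were more remote from genes than day 0 sites at large, although most lay in a gene or within 50 kb of it. Promoter windows touched 82 of them (0.403%; 0.320 to 0.4997), against 7.56% of all day 0 sites. Within 1 kb of a protein-coding gene's end lay 545 (2.68%; 2.46 to 2.91), against 11.5%. Gene bodies held 8482 (41.7%; 40.99 to 42.3), against 53.8%, and a further 4208 (20.7%) lay outside genes but within 50 kb, against 24.1%. More than 50 kb from any protein-coding gene lay 7668 (37.7%; 37.0 to 38.3), against 22.1%, and more than 200 kb away 4279 (21.02%; 20.5 to 21.6), against 9.78%. The sites were thus poorer in promoters and gene ends, and richer in remote positions, than day 0 sites at large. The median distance to the nearest gene end was 65610 bp, against 26250 bp for all day 0 sites.

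Compared with sites of the day 0 and Thy1+ control lists alone, the gene-end share was the same within counting error, 2.68% against 2.54% (2.41 to 2.68). The distances were not: 37.7% of day 0-only sites and 29.8% (29.4 to 30.2) of the sites shared with Thy1+ cells lay more than 50 kb from a gene. Sites of all 5 control lists stood at the opposite end, with 33.0% at a gene end and 7.44% more than 50 kb away. Day 0-only sites and the sites shared with Thy1+ cells alone were thus both poor in gene ends, and day 0-only sites were the more remote.

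**Figure D2:**
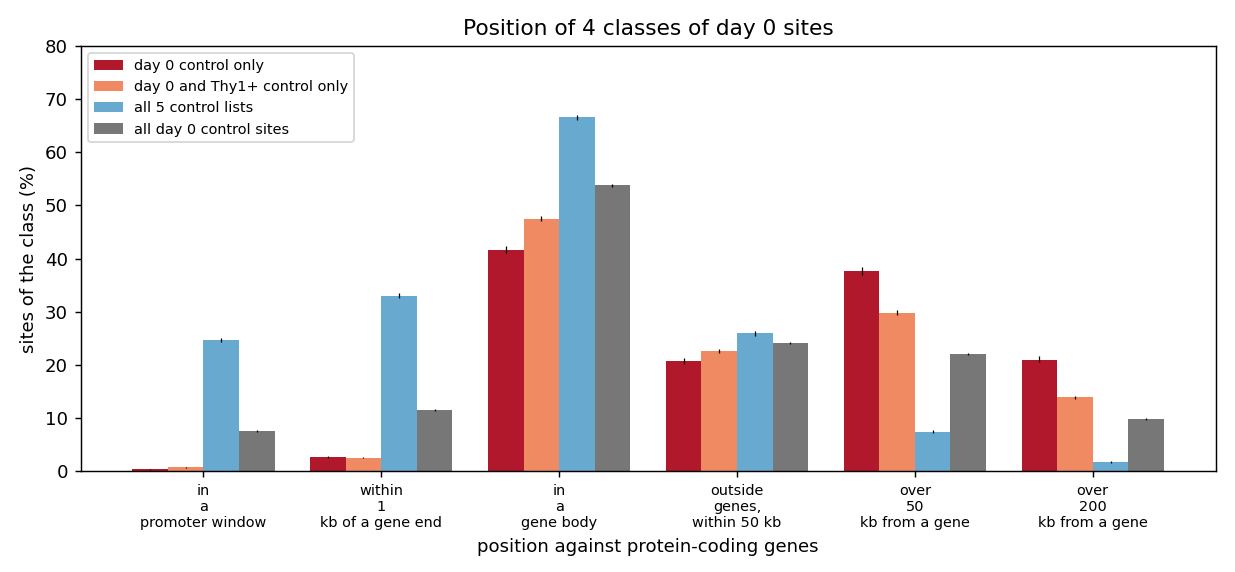
Percentage of sites (vertical axis) in each position relative to protein-coding genes, for the same 4 classes, with whiskers for the 95% intervals; the positions are not exclusive. Day 0-only sites have the lowest shares in gene bodies (41.7%) and promoter windows (0.403%) and the highest more than 50 kb (37.7%) and 200 kb (21.02%) from a gene.

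Within the day 0-only sites, those also found in SSEA1-Thy1-, SSEA1+ or GFP+ cells with CTCF shRNA, or at day 10 or 12, lay nearer to genes. These lists are of other treatments or unsorted cells, so closing and reopening of a site was not followed. Of the 896 listed in GFP+ cells with CTCF shRNA, 24.7% were more than 50 kb from a gene. Of the 625 in SSEA1-Thy1- cells it was 22.2% and of the 1353 in SSEA1+ cells 26.2%. Of the 13698 found in no sorted list with CTCF shRNA it was 39.1%. The 5249 listed in Thy1+ cells with CTCF shRNA stayed close to the rest, at 37.3%, against 37.8% of the 15109 absent there. Sites of the day 0 and Thy1+ control lists alone showed the same, with 29.9% of those listed and 29.5% of those absent, whereas over all day 0 sites it was 19.9% of the listed and 32.8% of the absent ones. Of the 67 found at day 12 with Smarca5 shRNA 11.9% were this far from a gene, and of the 66 with control shRNA 12.1%. At day 10 it was 22.6% of the 84 with CTCF overexpression plus Smarca5 shRNA. With CTCF overexpression it was 29.0% of the 69, and with its control 27.8% of the 97. The 984 day 0-only sites absent from the day 0 list with CTCF shRNA stood at 26.5%. Nearness was thus not particular to sites found in the sorted or unsorted lists. Sites of all 5 control lists stood at 7.44%, against 22.1% of all day 0 sites.

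The surroundings of the sites were thinly populated. Within 500 kb on either side, a day 0-only site had a median of 64 day 0 sites and 4 protein-coding gene starts, against 79 and 7 for all day 0 sites, 75 and 6 for sites shared with Thy1+ cells alone, and 86 and 12 for sites of all 5 control lists. They were also far from each other, with a median of 32741 bp to the nearest of their own kind, against 4030 bp among all day 0 sites, whose number is larger.

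The share of day 0 sites that were day 0-only fell with each step in gene density. With no gene start within 500 kb it was 32.8% (2670 of 8130; 31.8 to 33.9), with 1 to 2 it was 22.8%, with 3 to 5 it was 15.5% and with 6 to 10 it was 10.7%. It was 7.79% with 11 to 20 gene starts, 5.95% with 21 to 40 and 4.52% (186 of 4116; 3.90 to 5.199) with 41 to 73. By the number of day 0 sites within 500 kb, the share was 37.9% (1203 of 3178; 36.2 to 39.6) with 1 to 20, 25.5% with 31 to 40, 12.7% with 61 to 80 and 6.75% (2050 of 30387; 6.47 to 7.03) with more than 100. No interval of neighbouring steps overlapped in either series. The share of sites found in the day 0 and Thy1+ control lists alone also fell with gene density, being 46.1% with no gene start, 34.3% with 6 to 10 and 14.9% with 41 to 73. By site density that share was 37.5% in the sparsest, 42.3% in the next and 25.9% in the densest surroundings. The trend with gene density is thus not particular to day 0-only sites.

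The length of the gene around a site moved in the same direction. In bodies of genes under 30 kb, 861 of 16392 day 0 sites were day 0-only (5.25%; 4.92 to 5.61). The share was 7.70% for genes of 30 to 100 kb, 10.0% for 100 to 300 kb and 16.6% for 300 to 1000 kb. In the 59 genes of 1000 kb or more it was 25.9% (891 of 3435; 24.5 to 27.4). The share of sites found in the day 0 and Thy1+ control lists alone rose over the same steps, at 14.4%, 25.9%, 34.0%, 40.96% and 43.96%.

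By chromosome, the share ran from 9.58% on chromosome 11 and 10.0% on chromosome 7 to 15.8% on chromosome 3, with the X chromosome above all of them at 22.5% (1013 of 4501; 21.3 to 23.8), against 12.9% for the autosomes together. The X holds 4.98% of the day 0-only sites (4.68 to 5.28), against 2.92% of all day 0 sites. An X-linked day 0 site had a median of 46 day 0 sites within 500 kb, against 79 over all chromosomes, so the share was also read at equal surroundings. At equal numbers of day 0 sites within 500 kb the X and the autosomes were close: 41.4% (37.2 to 45.7) on the X against 37.1% (35.3 to 39.0) on the autosomes with 1 to 20 sites, 23.9% on the X against 25.7% with 31 to 40, and 14.3% (12.0 to 16.8) on the X against 12.7% with 61 to 80. At equal numbers of gene starts the X stayed higher, with 48.9% (41.3 to 56.5) on the X against 32.5% on the autosomes with none, and 14.5% (12.1 to 17.1) on the X against 7.62% on the autosomes with 11 to 20. The X excess was thus present at matched gene density and within counting error at matched site density. The X held 3.75% of the day 0-only sites listed in Thy1+ cells with CTCF shRNA and 5.40% of those absent there, and over all day 0 sites it held 2.58% of the listed and 4.57% of the absent ones.

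**Figure D3:**
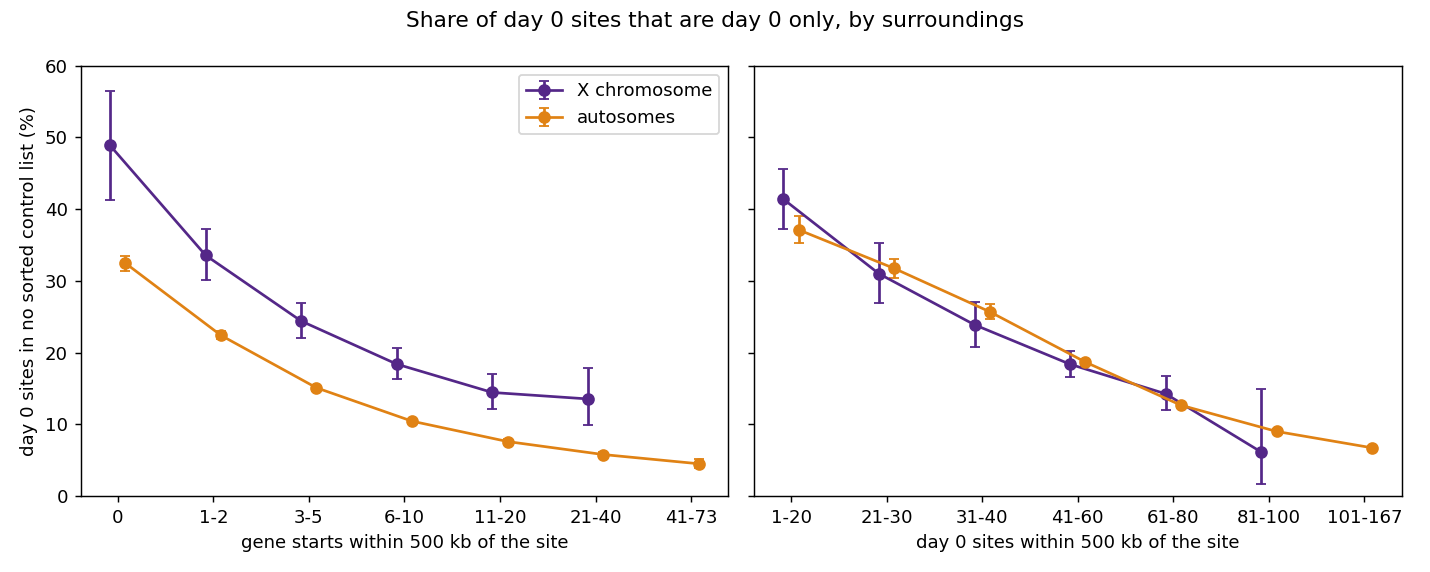
Percentage of day 0 sites that are day 0-only (vertical axis) by the number of protein-coding gene starts (left) and of day 0 sites (right) within 500 kb, for the X chromosome and the autosomes, with whiskers for the 95% intervals. Both curves fall to the right; the X lies above the autosomes on the left, and the intervals overlap on the right; the X bin of 41 to 73 gene starts, with 6 sites, is not drawn.

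**Figure D4:**
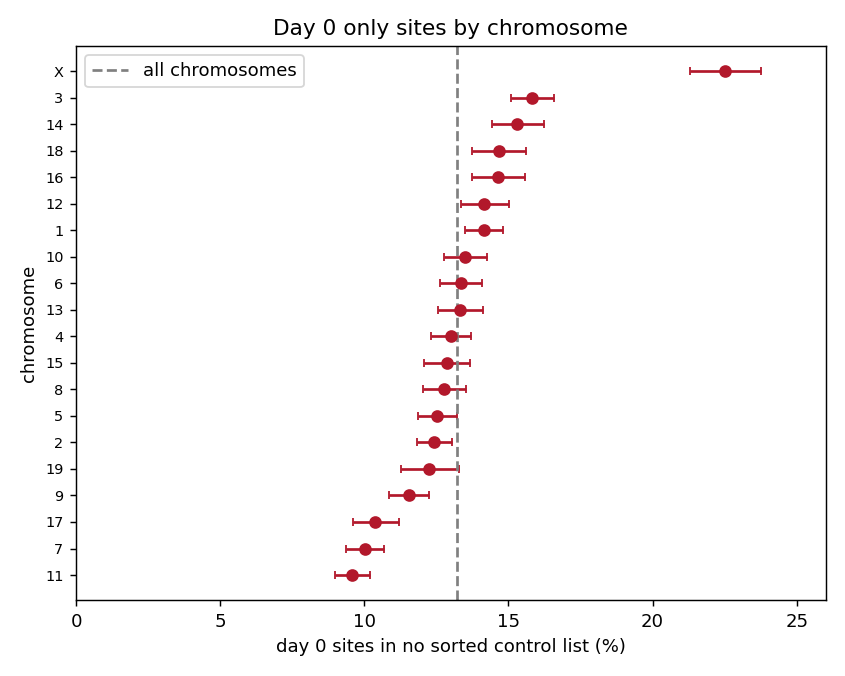
Percentage of day 0 sites that are day 0-only (horizontal axis) on each chromosome, with 95% intervals; the dashed line is the 13.2% of all chromosomes. The X chromosome at 22.5% stands clear of chromosome 3, the next at 15.8%.

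Genes were given the sites in their body and 50 kb on either side. Protein-coding genes together had 119896 such day 0 sites, of which 12690 (10.6%) were day 0-only, and 10789 of 21631 genes had at least 1. The 20 gene lists were read against this background, as counts with no test.

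Growth factor and Wnt genes had the highest share, 54 of 332 day 0 sites (16.3%; 12.5 to 20.7), with at least 1 day 0-only site at 17 of 20 genes and a median share per gene of 15.4%, against 5.56% over all genes. Within 20 kb of the genes the share was 13.4% (9.34 to 18.4), an interval that holds the 10.3% of all genes at that distance, and Pdgfd alone gave 14 of the 54 sites. Pdgfd, a ligand of the PDGF receptors that fibroblasts carry, had 38 day 0 sites, of which 14 were day 0-only; the sorted control lists held 24 (Thy1+), 6 (SSEA1-Thy1-), 1 (SSEA1+) and 2 (GFP+). All 14 were in the CTCF shRNA list of day 0, 3 in that of Thy1+ cells, 1 in SSEA1-Thy1- cells, 2 in SSEA1+ cells and 0 in GFP+ cells. Its relative Pdgfc had 8 of 33 sites day 0-only, all 8 in the day 0 list with CTCF shRNA and 2 in Thy1+. Igf1, the insulin-like growth factor secreted by stromal cells, had 4 of 13, with all 4 and 1 in those lists. Wnt5a, a non-canonical Wnt ligand of mesenchyme, had 4 of 16, and Fgf10, a mesenchymal ligand of epithelial receptors, 3 of 17. The receptor Fgfr2 had 1 of 21 and Pdgfa 0 of 14, so the genes of the list differed among themselves.

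Fibroblast genes were at the background, with 59 of 583 day 0 sites (10.1%; 7.79 to 12.9), although 25 of 35 genes had at least 1. Col5a1, a minor fibrillar collagen chain, led with 9 of 49, and its day 0 sites numbered 39 in the control list of Thy1+ cells, 25 in SSEA1-Thy1- cells, 9 in SSEA1+ cells and 7 in GFP+ cells. Of the 9, 8 were listed at day 0 with CTCF shRNA, 4 in Thy1+ cells, 1 in SSEA1-Thy1- cells, 2 in SSEA1+ cells and 1 in GFP+ cells. Its partner chain Col5a2 had 6 of 28, all 6 in the day 0 list with CTCF shRNA and none in the sorted ones, and 1 of them lay 535 bp from a gene end. Lox, which crosslinks collagen, had 5 of 19, and Zeb2, a repressor of epithelial genes, 5 of 28. Postn, a matrix protein of fibroblasts, had 3 of 14, the nearest 163 bp from a gene end. A day 0-only site within 1 kb of an end was not particular to fibroblast genes. It was found at 2 of 35 fibroblast, 2 of 15 housekeeping and 2 of 16 TGF-beta and BMP genes. Over all protein-coding genes it was found at 569 of 21631. The surface marker Thy1 itself had 0 of 19, Twist1 0 of 7, Fn1 0 of 23 and Col1a1 1 of 21. The fibroblast genes thus differed among themselves around the share of all genes.

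The factors linked to fibroblast enhancers were lower. AP-1, Runx and Tead genes had 24 of 432 day 0 sites (5.56%; 3.59 to 8.15), an interval below the 10.6% of all genes. Runx2, the osteoblast regulator, had 4 of 46, with 42 listed in Thy1+ control cells, and Tead1, a DNA-binding partner of Yap1, 4 of 54, with 49 listed there. Matrix enzymes had 19 of 225 (8.44%; 5.16 to 12.9), led by Adamts12, a secreted metalloprotease, with 6 of 39. Mmp14, which activates other metalloproteases, had 4 of 20, of which 1 overlapped a gene end. TGF-beta and BMP genes had 30 of 377 (7.96%; 5.43 to 11.2), led by Ltbp1, which stores latent TGF-beta in the matrix, with 10 of 72. Skeletal patterning and cartilage genes had 26 of 282 (9.22%; 6.11 to 13.2), with Sox5, a cartilage regulator, at 11 of 67, of which 6 were listed in Thy1+ cells with CTCF shRNA. Cytokine and innate response genes had 31 of 307 (10.1%; 6.96 to 14.0), with Csf1, the macrophage growth factor, at 4 of 24.

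Pluripotency, epithelial, housekeeping, Hox, cell cycle arrest and chromatin genes were at or below the background. Pluripotency genes had 12 of 246 (4.88%; 2.55 to 8.37), epithelial genes 10 of 252 (3.97%; 1.92 to 7.18) and housekeeping genes 13 of 218 (5.96%; 3.21 to 9.98), all with intervals under 10.6% at 50 kb, as were Hox genes with 4 of 128 (3.12%; 0.858 to 7.81). Pou5f1 had 2 of 14, and 1 of them lay 196 bp from a gene end, both listed at day 0 with CTCF shRNA and 1 in SSEA1-Thy1- cells. Cell cycle arrest genes had 11 of 151 (7.28%; 3.69 to 12.7) and chromatin architecture and remodelling genes 16 of 216 (7.41%; 4.29 to 11.8).

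Markers of other cells that a fibroblast culture can hold showed no common excess. Endothelial genes had 17 of 145 (11.7%; 6.98 to 18.1), with 7 of the 17 at Emcn, a sialoprotein of venous endothelium that had 13 day 0 sites. Of these 7, 6 were listed at day 0 with CTCF shRNA, 4 in Thy1+ and 3 in SSEA1+ cells. Keratinocyte genes had 7 of 65 (10.8%; 4.44 to 20.9), macrophage and blood genes 12 of 163 (7.36%; 3.86 to 12.5), adipocyte genes 14 of 204 (6.86%; 3.80 to 11.2) and endoderm and trophoblast genes 7 of 111 (6.31%; 2.57 to 12.6). Muscle genes had 6 of 126 (4.76%; 1.77 to 10.1) and neural and Schwann genes 4 of 96 (4.17%; 1.15 to 10.3). The median number of day 0 sites within 500 kb differed between lists, with 75 for keratinocyte genes, 77 for growth factor and Wnt genes, 88 for fibroblast genes, 114 for AP-1, Runx and Tead genes and 115 for Hox genes. Its part in these shares was not tested.

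**Figure D5:**
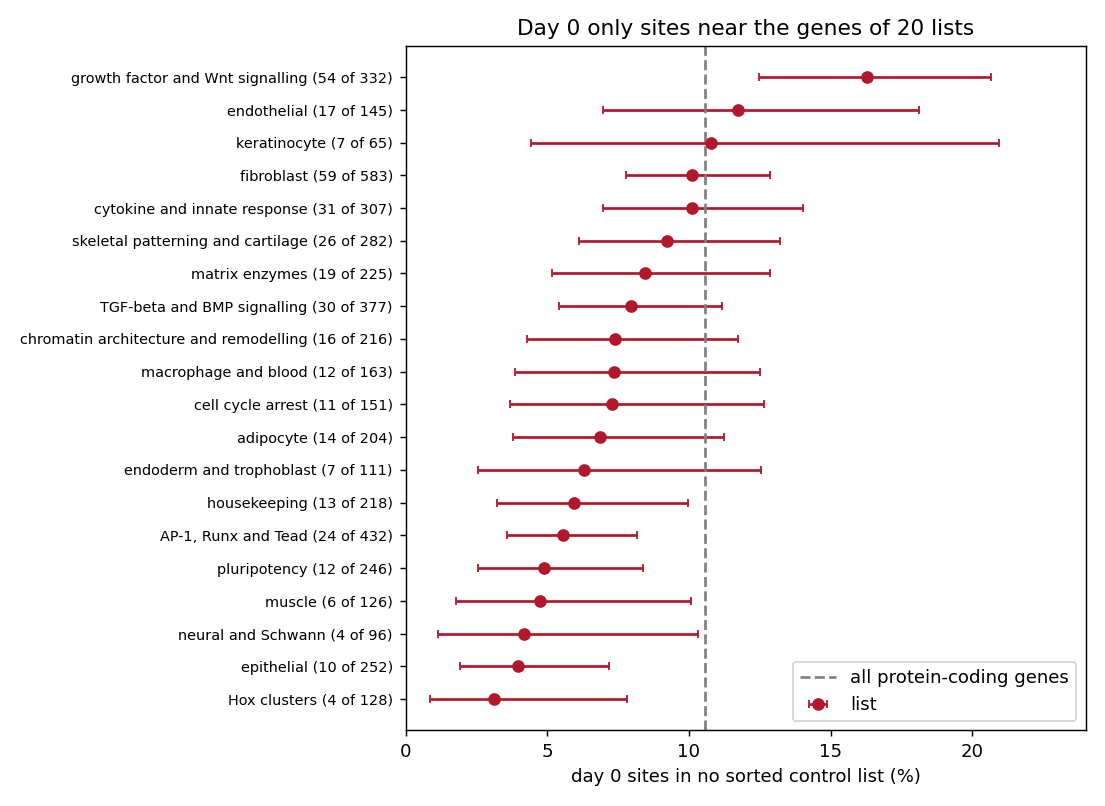
Percentage of the day 0 sites near each list's genes (gene body and 50 kb on either side) that are day 0-only, with 95% intervals and counts in the labels; the dashed line is the 10.6% of all protein-coding genes. Growth factor and Wnt genes (16.3%) lie above the line with their whole interval, and 7 lists lie below it with theirs; within 20 kb of the genes the intervals of growth factor and Wnt, pluripotency, housekeeping and muscle genes reach the share of all genes, as does that of neural and Schwann genes within 100 kb.

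The genes with the most day 0-only sites were very long. The 15 leading genes measured 1037 to 2271 kb, together held 371 sites (1.82% of all) and had shares of 21.7% to 42.9%. Macrod2, a hydrolase of ADP-ribosylated proteins, had 38 of 130 day 0 sites day 0-only, and its day 0 sites numbered 90 in the control list of Thy1+ cells, 30 in SSEA1-Thy1- cells, 27 in SSEA1+ cells and 10 in GFP+ cells. Of the 38, 37 were listed at day 0 with CTCF shRNA, 8 in Thy1+ cells, 1 in SSEA1-Thy1- cells, 3 in SSEA1+ cells and 2 in GFP+ cells. Ptprd, a receptor tyrosine phosphatase of synapses, had 34 of 83, of which 32 were listed at day 0 with CTCF shRNA and 7 in Thy1+ cells. Tenm3, a teneurin that joins cells in the nervous system, had 27 of 94, and Robo2, a receptor of Slit guidance cues, 22 of 70. Nkain2, a partner of the sodium pump, had the largest share of the 15 with 21 of 49. Others among them were Dlg2, Lrmda, Prkg1, Ctnna2, Lingo2, Lsamp, Kcnip4, Fhit and Cntnap2. A count of sites favours long genes, and the shares of the 15 lie around the 25.9% of all genes of 1000 kb or more. No day 0-only site lay within 1 kb of an end of Macrod2, Ptprd, Tenm3, Robo2 or Nkain2, and 36 of the 38 sites of Macrod2 and all 34 of Ptprd lay in the gene body.

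By share, among genes with at least 10 day 0 sites, the X-linked protocadherin Pcdh11x led with 11 of 16 (68.8%). All 11 were listed at day 0 with CTCF shRNA and 1 in Thy1+ cells. Lrfn5, a synaptic adhesion protein, had 8 of 13, all 8 listed at day 0 with CTCF shRNA and 3 in Thy1+. Csmd3, a large membrane protein with complement-type domains, had 16 of 29, all 16 listed at day 0, 2 in Thy1+ and 2 in SSEA1+ cells with CTCF shRNA, and 1 of the 16 overlapped a gene end. Dok6 had 8 of 13, Iqcm 8 of 14, Xkr4 12 of 22, Gm11555 6 of 11, Lrp1b 18 of 34 and Cntnap5c 7 of 14, beside Emcn above.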

How the data were processed

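ATAC-seq peak lists of 15 groups (32 samples) were used, 1 list per group. The submitters' processing notes name Bowtie2, MACS2, SAMtools, Picard, FastQC, cutadapt and Trim Galore and the builds mm10 and GRCm38. Their versions and roles, the peak threshold, any transposase shift and the way samples were joined are not given in the sources used. The deposited score column is 0 throughout, so peaks could not be ranked, and depth is unknown. All lists hold intervals of 400 bp, and 0 columns of per-sample values went unused.

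A site counted as listed at 1 bp of overlap or more. Positions were taken from 21631 protein-coding genes of the RefSeq table for GRCm38.p6, which gives no strand, so gene ends were used; 17274 of these genes matched a promoter window. Python 3.11.15, numpy 2.4.6, pandas 2.3.3, SciPy 1.17.1 (exact binomial intervals) and matplotlib 3.10.9 were used, and the overlap code was checked on simulated intervals. Named genes were the 15 with the most day 0-only sites, the 10 with the largest share among genes with at least 10 day 0 sites, up to 3 genes in each of 20 lists, and list genes with a site within 1 kb of an end; Wnt5a, Fgf10, Fgfr2, Pdgfa, Zeb2, Thy1, Twist1, Fn1 and Col1a1 were picked from the lists after their values were seen. One named gene is not reported here. The sites and lists were chosen with earlier results of these data known. Sequences outside promoter windows and miRNAs were not used. The alternatives tried were 200 bp of overlap, no sorted peak within 1 kb, merging within 200 bp, autosomes alone, other gene distances and a shorter promoter window.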

Additional observations from a re-analysis of the deposited data

How the results depend on the processing

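The number of day 0-only sites stayed between 17376 (no sorted control peak within 1 kb) and 20358. Merging intervals within 200 bp moved none of the shares beyond its interval. With 200 bp of overlap the shares held fell to 0.1572% with CTCF overexpression, 0.2063% with Smarca5 shRNA added and 0.2456% in the control at day 10, and to 0.1719% with Smarca5 shRNA and 0.1768% with control shRNA at day 12. Without sites that had a sorted control peak within 1 kb, the shares held with CTCF shRNA were 95.58% at day 0, 2.826% for SSEA1-Thy1- cells, 6.192% for SSEA1+ cells and 4.121% for GFP+ cells, and 0.2532% with CTCF overexpression at day 10; 1.842% lay at a gene end, 40.63% in a gene body, and 7.719% of day 0 sites near fibroblast genes and 8.793% near all genes were day 0-only. At 2.5 kb from a gene end the share was 6.715%. The share near all genes was 10.32% on autosomes alone, 10.31% at 20 kb and 10.99% at 100 kb. Among sites also in the day 0 list with CTCF shRNA, an alternative chosen after seeing the data, SSEA1-Thy1- cells held 2.73% and day 10 cells with CTCF overexpression 0.2632%, and 9.981% were found near all genes. The cause of these moves was not tested, beyond the fewer sites or longer distances that the settings themselves impose. In a promoter window of 150 bases before the start, 4 of 20 motif shares left their intervals, and the AP-1 share was 11.54%. No paired analysis was possible because each group has 1 list. Leaving out a sample was not possible for the same reason, and the unknown depth limits every statement that a site is absent.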

Other observations

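Gene families were counted after the leading genes had been seen, so their shares are descriptions. The 3 Csmd genes, large membrane proteins with complement-type domains, had 32 of 78 day 0 sites day 0-only (41.03%; 30.01 to 52.8), and the prolactin family, a cluster of placental hormone genes, 21 of 62 (33.9%; 22.3 to 47.0). Contactins and contactin-associated proteins, adhesion proteins of axons, had 74 of 273 (27.1%), teneurins 58 of 247 (23.5%), Slit receptors 36 of 166 (21.7%) and keratin-associated proteins 19 of 90 (21.1%). Vomeronasal receptors had 29 of 188 (15.4%), olfactory receptors 118 of 770 (15.3%), cadherins 63 of 461 (13.7%) and potassium channels 168 of 1391 (12.1%). Collagens were at the 10.6% of all genes with 95 of 916 (10.4%; 8.47 to 12.5), and zinc finger proteins (7.86%), keratins (6.35%) and ribosomal proteins (5.86%) were lower. The median number of day 0 sites within 500 kb was 23 for Csmd genes, 32 for contactins, 41 for prolactins, 58 for Slit receptors, 65 for teneurins and 74 for keratin-associated proteins, against 95 for collagens and for ribosomal proteins and 83 for all protein-coding genes.

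Day 0-only sites were spread over the genome, in 2489 of the 2544 stretches of 1 Mb that held a day 0 site, with a median of 8 and a maximum of 28 per stretch. Among stretches with at least 20 day 0 sites, also looked at after the fact, the largest share was on chromosome 3 from 11000001 to 12000000, where 22 of 29 day 0 sites were day 0-only (75.9%) and the table holds 0 protein-coding genes. Of its 29 day 0 sites the control list of Thy1+ cells held 7, that of SSEA1-Thy1- cells 3, that of SSEA1+ cells 2 and that of GFP+ cells 0. Of the 22, 20 were listed at day 0 with CTCF shRNA and 4 in Thy1+ cells. The next was chromosome 12 from 61000001 to 62000000, around Lrfn5, with 15 of 23 (65.2%), of which 14 were listed at day 0 with CTCF shRNA and 3 in Thy1+ cells.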
